A study of Ambystoma mexicanum with 15 samples.

Results

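The genes examined encode the machinery that moves and holds chromosomes in mitosis: kinesin motors, Aurora and Polo-like kinases, spindle checkpoint proteins, centromere and kinetochore proteins, the anaphase-promoting complex, separase, condensins and cohesins. They were measured in the spinal cord of the axolotl (Ambystoma mexicanum), a salamander that regenerates this organ. Genes were taken by symbol from the array's annotation: KIF followed by a number, KIFC, CENP, AURK, PLK, BUB, MAD2, NDC80, SPC2, ANAPC, CDC20, CDC23, CDC27, NCAP, SMC, PRC1, ESPL1 and PTTG1 were the name stems that found genes. The rule found 78 of the 8639 genes named on the array, with 107 probe sets, and its name matching used no measured difference. The genes and their roles were, however, chosen with earlier results of these data known. A gene with several probe sets was read from the one whose mean over the 15 arrays was highest. The symbols AURKB, AURKC, NUF2, TPX2, CENPA, SPC24, PTTG1, KIF14 and KIF18B had no named probe set and were not analysed here. The rule works on names, so it also took 18 kinesins not known mainly for a part in mitosis, among them motors of axons and cilia.

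In a dividing cell, condensins fold the replicated chromosomes while cohesin holds the sister copies together. Kinetochores built on the centromeres attach the chromosomes to spindle microtubules, which mitotic kinesins slide, cross-link and shorten under the control of Aurora and Polo-like kinases. Unattached kinetochores keep the spindle checkpoint active, and once it is satisfied CDC20 switches on the anaphase-promoting complex, separase cuts cohesin and the chromosomes part. In the axolotl the cells lining the central canal, called ependymoglia, divide after injury and rebuild the cord.

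Each of the 5 groups had 3 arrays, and each array carried RNA from a pool of 10 animals. In the ivermectin group the drug was injected into the central canal, a piece of the cord was then cut out, and the injured area was taken 1 day later. Ivermectin opens ligand-gated chloride channels. The other groups were uninjured cord and cord taken 1 day, 3 days and 7 days after injury without the drug. The protocol names a vehicle injection of water, but the labels do not say whether the 1 day group received it. Animals of all groups were labelled white axolotls of 1 month of age, although only the uninjured tissue was described as mature, and the amount of tissue taken around the wound was not stated. Values are log2 expression per probe set, so that a difference of 1 is a doubling, and log2 differences are given ± SE from limma with n = 3 arrays per group.

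Arrays of 1 group correlated at 0.9974 to 0.9987 across probe sets. The ivermectin arrays correlated with the uninjured arrays at 0.9962 to 0.9968 and with the 1 day arrays at 0.9673 to 0.9684. The poly-A control RNAs, which are spiked into the sample RNA ahead of labelling, read 7.43 ± 0.0475 (SD, n = 3) on ivermectin arrays, 7.54 ± 0.0286 on uninjured arrays, 8.08 ± 0.0441 at 1 day, 8.33 ± 0.0955 at 3 days and 7.94 ± 0.140 at 7 days. This control therefore moved along the same groups as the genes below, and its part in the results was not tested. GFAP, a marker of ependymoglia, averaged 9.97 ± 0.0591 on uninjured arrays and MBP, a myelin protein, 11.1 ± 0.0292. Skeletal muscle markers were also present in the tissue labelled spinal cord, with a mean level of 9.97 to 10.01 over 23 genes on the uninjured arrays. In pooled tissue, fewer cells of a type and less RNA per cell cannot be told apart. Typical replicate error was small: the median SD of the 78 genes within a group lay between 0.0733 and 0.08.

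After injury most of the mitotic genes fell. At 1 day 45 of the 78 genes fell and 14 rose against uninjured cord (limma, adjusted p under 0.05), where 29.8% of all named genes fell and 25.8% rose. At 3 days 48 fell and 19 rose, against 32.5% and 29.4% of all named genes. At 7 days 43 fell and 17 rose, against 29.2% and 31.1%. The median difference of the 78 genes was -0.41 at 1 day, -0.32 at 3 days and -0.30 at 7 days, and the median of all named genes at 1 day was -0.0031. Falls of at least 2-fold were found for 13 of the 78 genes at 1 day (16.7%, against 2.62% of all named genes), for 19 at 3 days (24.4% against 5.39%) and for 11 at 7 days (14.1% against 4.71%). These 3 comparisons share the uninjured arrays and are not independent of each other.

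**Figure D1:**
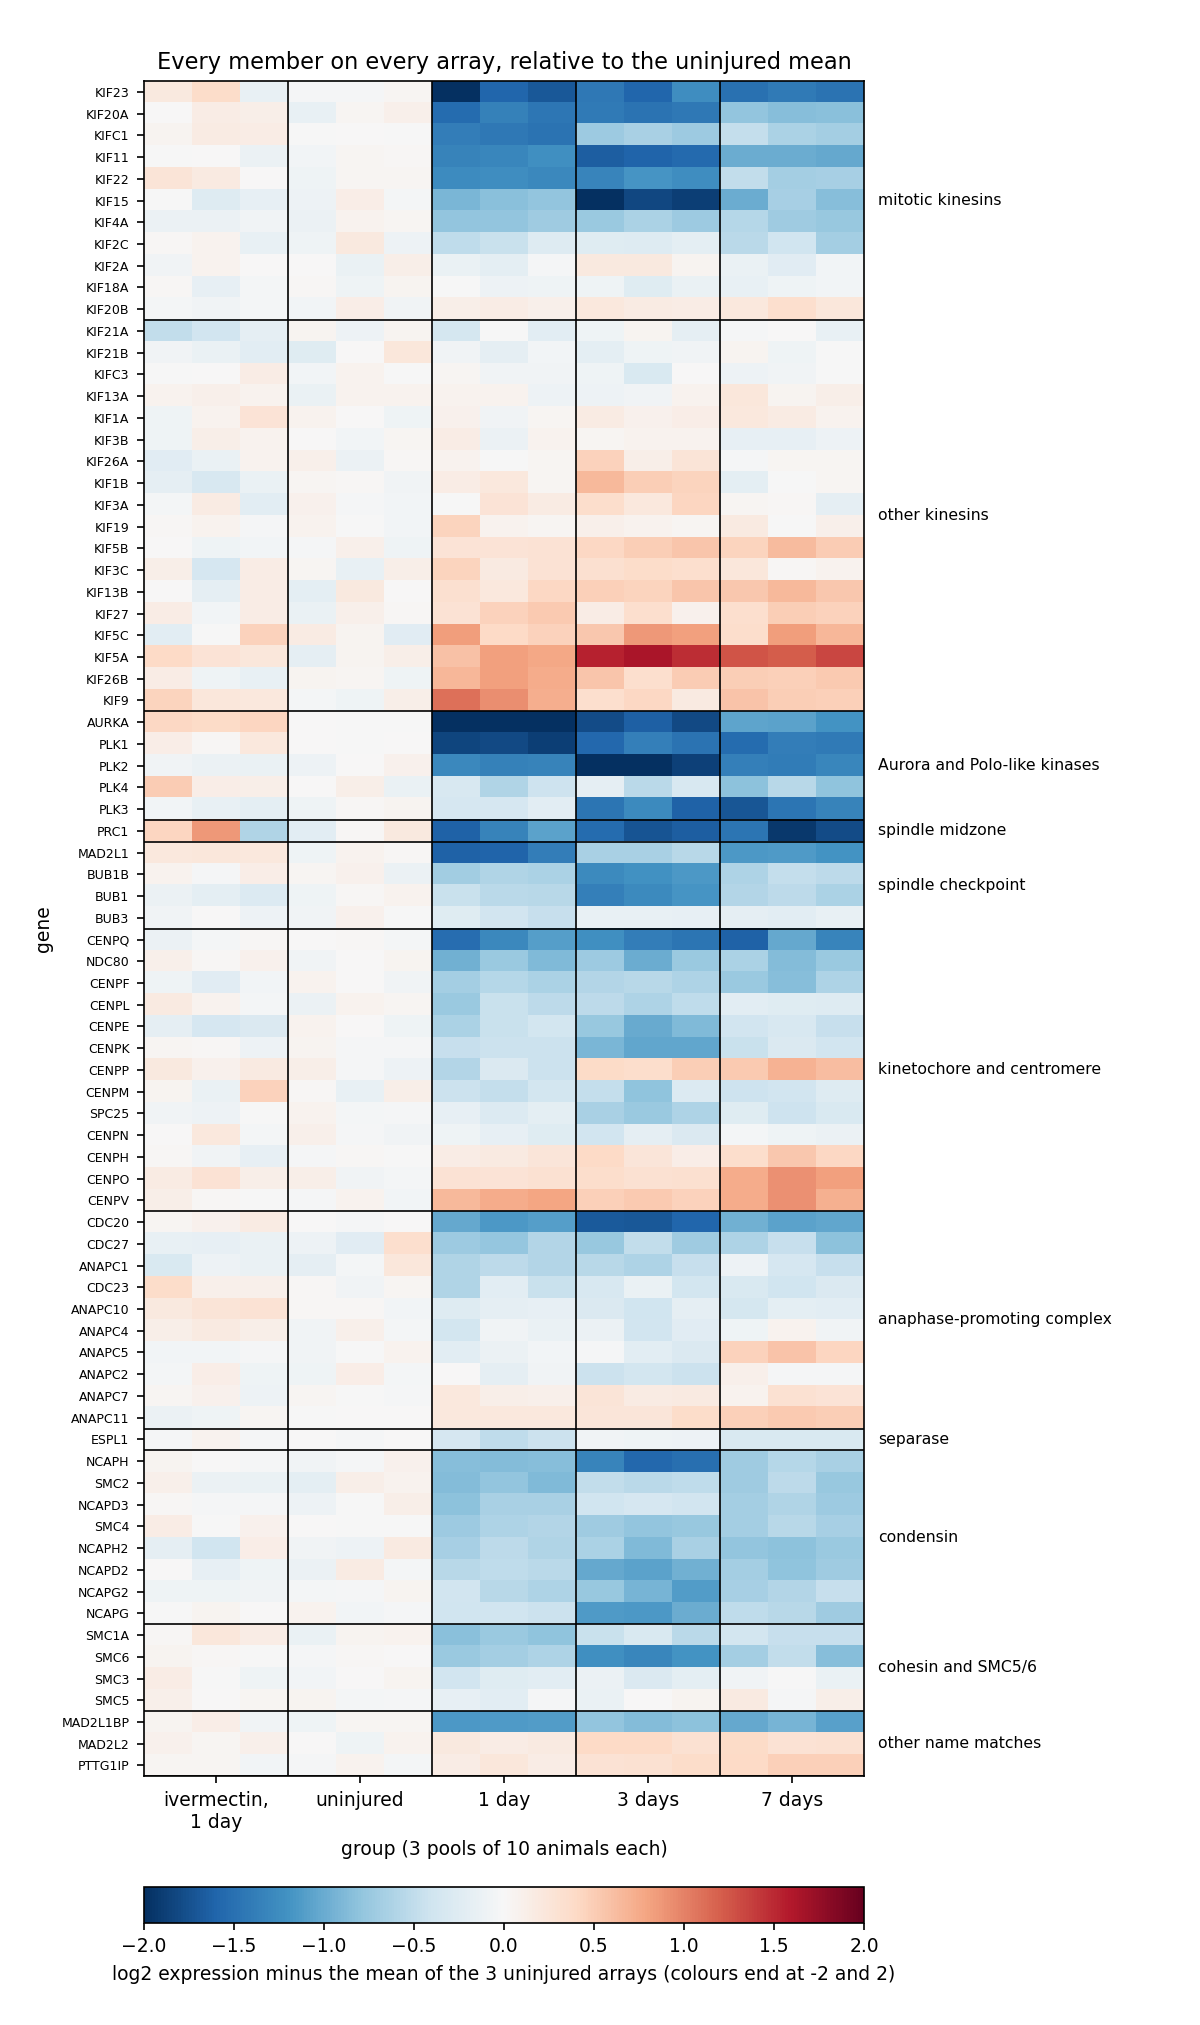
Heat map of the 78 genes (rows, grouped by role) on the 15 arrays (columns, ivermectin at the left, then uninjured, 1, 3 and 7 days). Colour is the log2 level minus the gene's mean on the uninjured arrays and ends at -2 and 2, and the rows of the mitotic roles are mostly low at 1, 3 and 7 days, while ivermectin columns stay near the uninjured ones.

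**Figure D2:**
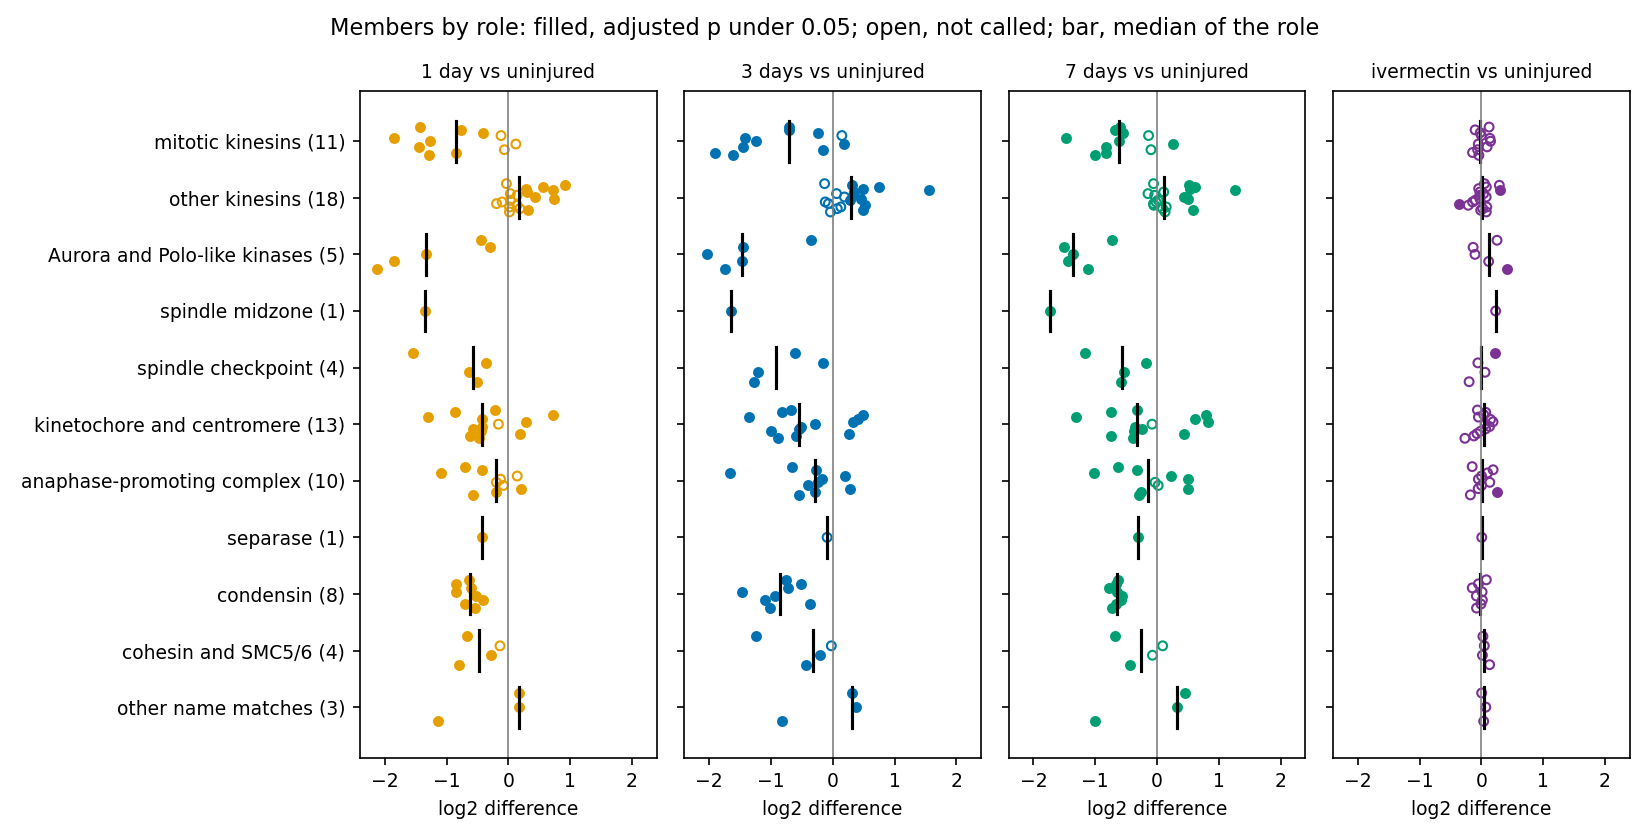
Log2 differences of the 78 genes by role, with 1 point per gene, a bar at the median of the role and 1 panel for each of 1, 3 and 7 days and ivermectin against uninjured cord; filled points passed an adjusted p under 0.05. Condensin, checkpoint and Aurora and Polo-like kinase genes lie below 0 in all 3 comparisons of injured with uninjured cord, most other kinesins lie above 0 there, and in the ivermectin panel the points lie between -0.36 and 0.41.

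The Aurora and Polo-like kinases drive entry into mitosis and the building of the spindle, and all 5 measured genes fell at each time. Of all named genes 29.8% fell at 1 day, 32.5% at 3 days and 29.2% at 7 days. AURKA, the kinase that matures centrosomes, read 8.38, 8.37 and 8.38 on the uninjured arrays, 6.21, 6.21 and 6.34 at 1 day, 6.59, 6.74 and 6.57 at 3 days and 7.32, 7.31 and 7.18 at 7 days. The 3 arrays of each time lay together and far from the uninjured arrays, with the lowest level at 1 day and a partial return by 7 days. It fell by 2.12 ± 0.057 at 1 day (4.36-fold lower; limma, adjusted p = 3.43e-13), rank 9 from the lowest among the 8639 named genes, and fell by 1.74 ± 0.057 at 3 days and fell by 1.11 ± 0.057 at 7 days. Between the injured groups AURKA rose by 0.38 ± 0.057 at 3 days relative to 1 day and rose by 0.63 ± 0.057 at 7 days relative to 3 days. PLK1, the kinase that carries cells through mitosis, read 9.30, 9.29 and 9.31 on the uninjured arrays, 7.47, 7.49 and 7.42 at 1 day, 7.73, 7.94 and 7.83 at 3 days and 7.77, 7.92 and 7.89 at 7 days. All 9 injured arrays lay below the uninjured ones, and the difference was -1.84 ± 0.062 at 1 day, -1.47 at 3 days and -1.44 at 7 days. PLK4, which starts the duplication of centrioles, fell by 0.45 ± 0.12 at 1 day, 0.35 at 3 days and 0.73 at 7 days. Its 3 day call was lost without uninjured replicate 2 or 3 days replicate 2 (highest adjusted p by limma 0.106).

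PLK2 and PLK3 belong to the same family but are known as kinases switched on by growth factors and stress rather than as core mitotic kinases. PLK2 read 10.45, 10.55 and 10.63 on the uninjured arrays, 9.25, 9.19 and 9.21 at 1 day, 8.51, 8.34 and 8.68 at 3 days and 9.17, 9.14 and 9.23 at 7 days. It was lowest at 3 days, where it fell by 2.03 ± 0.072 (4.09-fold lower), with -1.33 at 1 day and -1.36 at 7 days. PLK3 read 6.75, 6.86 and 6.89 on the uninjured arrays, 6.50, 6.49 and 6.63 at 1 day, 5.37, 5.56 and 5.22 at 3 days and 5.12, 5.36 and 5.49 at 7 days. Its 1 day arrays were only slightly lower than the uninjured ones, with a fall of 0.29 on the log2 scale that lost its call without 1 day replicate 1, 1 day replicate 2 or uninjured replicate 3 (highest adjusted p by limma 0.0594). At 3 and 7 days PLK3 lay clearly lower, with differences of -1.45 and -1.51 from uninjured cord and of -1.16 ± 0.095 between 3 days and 1 day.

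Of the 11 measured mitotic kinesins, 8 fell at 1 day, 9 at 3 days and 8 at 7 days, with median differences of -0.85, -0.70 and -0.61. These falls were 72.7%, 81.8% and 72.7% of the group, against 29.8%, 32.5% and 29.2% of all named genes. The 3 day count includes KIF18A, which was below the lower quartile of its array (taken as dim) on all 15 arrays and lost its call in 11 of 21 alternatives (highest adjusted p by limma 0.253). KIF23, a motor of the central spindle needed for the final cut between daughter cells, read 7.60, 7.59 and 7.66 on the uninjured arrays, 5.37, 6.02 and 5.92 at 1 day, 6.18, 6.02 and 6.38 at 3 days and 6.12, 6.19 and 6.13 at 7 days. The 1 day arrays spread widely, but every injured array lay below the uninjured ones, and KIF23 fell by 1.84 ± 0.15 at 1 day, by 1.42 at 3 days and by 1.46 at 7 days. KIF20A, which works with KIF23 at the central spindle, read 7.93, 8.11 and 8.18 on the uninjured arrays, 6.53, 6.72 and 6.63 at 1 day, 6.66, 6.60 and 6.64 at 3 days and 7.29, 7.23 and 7.24 at 7 days. The 1 and 3 day arrays did not differ beyond the replicate spread (0.01 ± 0.066), and it rose by 0.62 ± 0.066 at 7 days relative to 3 days.

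KIF11 slides antiparallel microtubules apart to separate the spindle poles. It read 9.09, 9.18 and 9.16 on the uninjured arrays, 7.80, 7.84 and 7.92 at 1 day, 7.49, 7.53 and 7.59 at 3 days and 8.15, 8.15 and 8.12 at 7 days. The lowest arrays were those of 3 days, where it fell by 1.61 ± 0.050, against -1.28 at 1 day and -1.0 at 7 days. KIF15, a motor that helps KIF11 to keep the spindle bipolar, read 8.45, 8.69 and 8.51 on the uninjured arrays, 7.63, 7.72 and 7.76 at 1 day, 6.55, 6.74 and 6.67 at 3 days and 7.57, 7.89 and 7.70 at 7 days. Its 3 day arrays stood below both the 1 day and the 7 day arrays without overlap, and it fell by 1.05 ± 0.089 at 3 days relative to 1 day and rose by 1.06 ± 0.089 at 7 days relative to 3 days. KIFC1, a minus-end directed motor that gathers spindle poles, had another course. It read 9.78, 9.80 and 9.78 on the uninjured arrays, 8.41, 8.37 and 8.31 at 1 day, 9.06, 9.14 and 9.07 at 3 days and 9.32, 9.16 and 9.11 at 7 days. It was lowest at 1 day (-1.43 ± 0.056) and rose by 0.73 ± 0.056 at 3 days relative to 1 day.

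KIF22, which binds chromosome arms and pushes them towards the spindle equator, fell by 1.26 ± 0.072 at 1 day, 1.25 at 3 days and 0.61 at 7 days. KIF4A, a chromosome-bound motor that limits the length of midzone microtubules, was lower by a similar amount at the 3 times, with -0.76, -0.70 and -0.68. KIF2C, which takes microtubule ends apart to correct faulty attachments, read 6.51, 6.79 and 6.50 on the uninjured arrays, 6.09, 6.15 and 6.34 at 1 day, 6.36, 6.34 and 6.41 at 3 days and 6.07, 6.19 and 5.91 at 7 days. It fell by 0.41 ± 0.093 at 1 day and 0.54 at 7 days, and its smaller 3 day fall of 0.23 lost its call in 6 of 22 alternative analyses (highest adjusted p by limma 0.211). KIF20B, another kinesin of cell division, differed in direction, with 0.12 at 1 day (not called), 0.18 at 3 days and 0.26 at 7 days. The 3 day rise of KIF20B lost its call in 5 of 22 alternatives (highest adjusted p by limma 0.405), and the other probe set of KIF20B was not called at 3 or 7 days. KIF18A, which damps chromosome movements, stayed below the lower quartile of its array on all 15 arrays and no level above background was shown.

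PRC1 bundles the microtubules of the spindle midzone. It read 5.02, 5.25 and 5.42 on the uninjured arrays, 3.62, 3.90 and 4.16 at 1 day, 3.70, 3.50 and 3.59 at 3 days and 3.77, 3.31 and 3.45 at 7 days. The 9 injured arrays lay below the uninjured arrays and below the lower quartile of their own array, so the differences of -1.34 ± 0.27 at 1 day, -1.64 at 3 days and -1.72 at 7 days run into dim levels and are not exact.

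All 4 spindle checkpoint genes fell at each time, with different low points, where 29.8%, 32.5% and 29.2% of all named genes fell. MAD2L1 encodes Mad2, the protein that holds CDC20 in check. It read 8.13, 8.28 and 8.25 on the uninjured arrays, 6.60, 6.62 and 6.83 at 1 day, 7.58, 7.58 and 7.67 at 3 days and 7.07, 7.08 and 7.02 at 7 days. The groups did not overlap, and the order from high to low was uninjured, 3 days, 7 days and 1 day. MAD2L1 fell by 1.54 ± 0.062 at 1 day (2.9-fold lower; limma, adjusted p = 2.74e-11), 0.61 at 3 days and 1.16 at 7 days.

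BUB1, a kinase of the kinetochore, read 7.37, 7.48 and 7.52 on the uninjured arrays, 7.02, 6.92 and 6.90 at 1 day, 6.10, 6.19 and 6.28 at 3 days and 6.87, 6.93 and 6.82 at 7 days. BUB1B, the BubR1 arm of the checkpoint complex, read 7.81, 7.86 and 7.66 on the uninjured arrays, 7.08, 7.18 and 7.15 at 1 day, 6.51, 6.56 and 6.64 at 3 days and 7.17, 7.30 and 7.26 at 7 days. Both genes were lowest on the 3 day arrays, where BUB1 fell by 1.27 ± 0.062 and BUB1B by 1.21 ± 0.063 relative to uninjured cord. BUB3, which brings both to the kinetochore, had smaller differences of -0.36, -0.15 and -0.18, and its calls were lost in 7 of 22 alternatives at 3 days (highest adjusted p by limma 0.231) and in 2 at 7 days (0.0761). MAD2L1BP, a protein that removes Mad2 from its complex and was taken by its name, fell by 1.13 ± 0.059 at 1 day, 0.83 at 3 days and 1.01 at 7 days. MAD2L2, a subunit of a DNA repair polymerase with a similar name, and PTTG1IP, a partner of securin, rose at all 3 times by 0.17 to 0.45, and the 1 day call of MAD2L2 was lost without uninjured replicate 2 (adjusted p by limma 0.0597).

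Of the 10 measured genes of the anaphase-promoting complex and its activators, 5 fell and 1 rose at 1 day, 8 fell and 2 rose at 3 days, and 5 fell and 3 rose at 7 days. The falls were 50%, 80% and 50% of the group, against 29.8%, 32.5% and 29.2% of all named genes. The rises at 3 and 7 days (20% and 30%) were no larger a share than among all named genes (29.4% and 31.1%). The 8 falls at 3 days were 5 with each array centred on its median, where ANAPC4, ANAPC5 and CDC23 lost their calls. CDC20, the activator that starts anaphase, read 10.39, 10.36 and 10.39 on the uninjured arrays, 9.36, 9.23 and 9.27 at 1 day, 8.70, 8.69 and 8.79 at 3 days and 9.42, 9.31 and 9.34 at 7 days. The 3 day arrays were the lowest and the 1 and 7 day arrays shared a range. CDC20 fell by 1.65 ± 0.052 at 3 days (3.15-fold lower), against -1.09 at 1 day and -1.03 at 7 days. The core subunits moved less. ANAPC1, the scaffold, read 6.25, 6.38 and 6.66 on the uninjured arrays, 5.83, 5.91 and 5.85 at 1 day, 5.87, 5.80 and 5.97 at 3 days and 6.32, 6.10 and 5.97 at 7 days. It fell by 0.57 ± 0.10 at 1 day, 0.55 at 3 days and 0.30 at 7 days, where the call was lost in 4 of 22 alternatives (highest adjusted p by limma 0.115).

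CDC27, the subunit that docks the activators, fell by 0.69 ± 0.12 at 1 day, 0.66 at 3 days and 0.63 at 7 days. ANAPC11, the catalytic subunit that works with the ubiquitin-conjugating enzyme, was higher at the 3 times, with 0.21, 0.28 and 0.49. ANAPC5, a scaffold subunit, changed sides over time. It read 6.76, 6.83 and 6.90 on the uninjured arrays, 6.62, 6.71 and 6.77 at 1 day, 6.80, 6.62 and 6.54 at 3 days and 7.30, 7.40 and 7.26 at 7 days. The 7 day arrays stood above those of the other 3 groups, with a rise of 0.49 ± 0.067 against uninjured cord and of 0.67 against 3 days. The 3 day fall of ANAPC5 by 0.18 was lost in 9 of 22 alternatives (highest adjusted p by limma 0.167). ESPL1, the separase that cuts cohesin, read 5.57, 5.54 and 5.57 on the uninjured arrays, 5.22, 5.05 and 5.12 at 1 day, 5.48, 5.46 and 5.46 at 3 days and 5.24, 5.25 and 5.25 at 7 days. Its 1 day and 7 day arrays were lower, by 0.43 ± 0.048 and 0.31, and the 3 day difference of -0.09 was not called.

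Of 13 measured kinetochore and centromere genes, 9 fell and 3 rose at 1 day, 9 fell and 4 rose at 3 days, and 8 fell and 4 rose at 7 days. The falls were 69.2%, 69.2% and 61.5% of the group, against 29.8%, 32.5% and 29.2% of all named genes, and the rises of 23.1%, 30.8% and 30.8% were near the 25.8%, 29.4% and 31.1% of all named genes. NDC80, the part of the outer kinetochore that grips microtubules, read 8.0, 8.06 and 8.12 on the uninjured arrays, 7.10, 7.31 and 7.18 at 1 day, 7.33, 7.07 and 7.31 at 3 days and 7.42, 7.19 and 7.32 at 7 days. CENPE, a kinesin that walks chromosomes to the spindle equator, read 7.45, 7.39 and 7.30 on the uninjured arrays, 6.75, 6.94 and 7.01 at 1 day, 6.62, 6.37 and 6.49 at 3 days and 7.0, 7.06 and 6.92 at 7 days. CENPF, a large kinetochore protein of dividing cells, read 6.46, 6.40 and 6.32 on the uninjured arrays, 5.71, 5.83 and 5.75 at 1 day, 5.80, 5.83 and 5.78 at 3 days and 5.64, 5.54 and 5.77 at 7 days. For these 3 genes each injured array lay below every uninjured array. NDC80 differed from uninjured cord by -0.86, -0.82 and -0.75 at 1, 3 and 7 days, CENPE by -0.48, -0.89 and -0.39, and CENPF by -0.63, -0.59 and -0.74. The other probe set of CENPE was not called at any of these times or with ivermectin relative to 1 day. SPC25, a partner of NDC80, was lowest at 3 days with -0.67 ± 0.059, and its 1 day fall of 0.21 was lost under cyclic loess (adjusted p by limma 0.0812).

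Of the genes of the constitutive centromere network, which bridges centromeric chromatin and the outer kinetochore, CENPQ, CENPK, CENPL and CENPM fell at all 3 times, CENPN fell at 3 days, CENPO and CENPH rose at all 3 times, and CENPP changed sides. CENPQ read 6.94, 6.96 and 6.89 on the uninjured arrays, 5.40, 5.64 and 5.83 at 1 day, 5.70, 5.54 and 5.47 at 3 days and 5.31, 5.91 and 5.62 at 7 days. CENPO, which sits in the same subcomplex, read 7.52, 7.33 and 7.36 on the uninjured arrays, 7.70, 7.68 and 7.71 at 1 day, 7.75, 7.71 and 7.72 at 3 days and 8.15, 8.32 and 8.21 at 7 days. CENPP, also of that subcomplex, read 6.25, 6.11 and 6.02 on the uninjured arrays, 5.54, 5.84 and 5.70 at 1 day, 6.52, 6.47 and 6.62 at 3 days and 6.66, 6.82 and 6.74 at 7 days. The injured arrays of CENPQ all lay below the uninjured ones and those of CENPO all above them. CENPQ was lower after injury by 1.30 ± 0.13 at 1 day, 1.36 at 3 days and 1.31 at 7 days. CENPO was higher by 0.29 ± 0.061, 0.33 and 0.83 at the same times. CENPP fell by 0.43 ± 0.079 at 1 day but rose by 0.41 ± 0.079 at 3 days and rose by 0.61 ± 0.079 at 7 days, and its 1 day arrays stood below those of all other groups. CENPL differed by -0.57, -0.55 and -0.24, and its 7 day call was lost without uninjured replicate 2 (adjusted p by limma 0.0657). CENPM differed by -0.43, -0.52 and -0.35, with the 1 day call lost without uninjured replicate 3 or 1 day replicate 2 (highest adjusted p by limma 0.0682) and the 7 day call lost in 10 of 22 alternatives (highest adjusted p by limma 0.139). CENPN fell by 0.28 at 3 days, with its injured arrays all below their own lower quartile. The other probe set of CENPN was not called at 3 days but was called at 1 day, where the used one was not. The pair CENPH and CENPK, which bind each other in the same network, also differed in sign. CENPK differed by -0.44, -1.0 and -0.38 at 1, 3 and 7 days, and CENPH by 0.19, 0.26 and 0.43, of which the 1 day value lost its call in 6 of 22 alternatives (highest adjusted p by limma 0.104). CENPV, named for the centromere and not a subunit of this network, read 9.82, 9.90 and 9.79 on the uninjured arrays, 10.49, 10.58 and 10.63 at 1 day, 10.31, 10.35 and 10.30 at 3 days and 10.57, 10.75 and 10.54 at 7 days. Its injured arrays were higher at every time, with a rise of 0.73 ± 0.062 at 1 day.

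All 8 condensin genes fell at 1, 3 and 7 days, with median differences of -0.62, -0.85 and -0.65. At these times 29.8%, 32.5% and 29.2% of all named genes fell. SMC2 and SMC4 form the ATPase core shared by both condensin complexes. SMC2 read 8.30, 8.63 and 8.58 on the uninjured arrays, 7.63, 7.71 and 7.62 at 1 day, 8.02, 7.96 and 8.0 at 3 days and 7.80, 7.98 and 7.74 at 7 days. SMC4 read 9.28, 9.26 and 9.26 on the uninjured arrays, 8.54, 8.65 and 8.68 at 1 day, 8.55, 8.47 and 8.50 at 3 days and 8.59, 8.71 and 8.61 at 7 days. The uninjured arrays were the highest of these 4 groups for both genes, and the falls at 1 day were 0.85 ± 0.086 for SMC2 and 0.64 ± 0.055 for SMC4.

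NCAPH is the clasp of condensin I, which acts once the nuclear envelope has broken down. It read 7.91, 7.95 and 8.06 on the uninjured arrays, 7.13, 7.10 and 7.12 at 1 day, 6.66, 6.41 and 6.47 at 3 days and 7.26, 7.41 and 7.32 at 7 days. NCAPG, its neighbour in the complex, read 8.76, 8.63 and 8.66 on the uninjured arrays, 8.28, 8.28 and 8.25 at 1 day, 7.54, 7.53 and 7.69 at 3 days and 8.17, 8.13 and 7.98 at 7 days. Both were lowest on the 3 day arrays, with falls of 1.46 ± 0.065 for NCAPH and 1.09 ± 0.060 for NCAPG. NCAPD2, the remaining condensin I subunit, also had its low point at 3 days, with -0.53, -1.02 and -0.73 at 1, 3 and 7 days. Among the condensin II subunits, which act in the nucleus from early prophase, NCAPG2 differed by -0.52, -0.93 and -0.57. NCAPH2 differed by -0.60, -0.72 and -0.78, and NCAPD3 by -0.70, -0.37 and -0.66, so that its 3 day value was the smallest of its 3. The other probe set of NCAPD3 was not called at any of these times or with ivermectin relative to 1 day.

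Of the cohesin core, SMC1A read 5.87, 6.07 and 6.09 on the uninjured arrays, 5.17, 5.28 and 5.20 at 1 day, 5.57, 5.70 and 5.48 at 3 days and 5.65, 5.55 and 5.55 at 7 days. SMC3, its partner in the ring, read 8.51, 8.56 and 8.61 on the uninjured arrays, 8.18, 8.32 and 8.35 at 1 day, 8.44, 8.27 and 8.37 at 3 days and 8.48, 8.55 and 8.43 at 7 days. SMC1A was lower by 0.79 ± 0.073 at 1 day and by 0.43 at 3 and at 7 days, while SMC3 was lower by 0.28 at 1 day and 0.20 at 3 days and was not called at 7 days (-0.07). The 3 day call of SMC1A was lost when its probe sets were averaged (adjusted p by limma 0.131), and that of SMC3 in 3 of 22 alternatives (highest adjusted p by limma 0.092). The other probe set of SMC1A was not called at 1, 3 or 7 days. That of SMC3 fell at 1 and 3 days and was also called at 7 days, where the used probe set was not. SMC6, a subunit of the related complex of DNA repair, fell by 1.24 ± 0.072 at 3 days, against -0.68 at 1 day and -0.68 at 7 days. Its partner SMC5 stayed below the lower quartile on all 15 arrays.

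**Figure D3:**
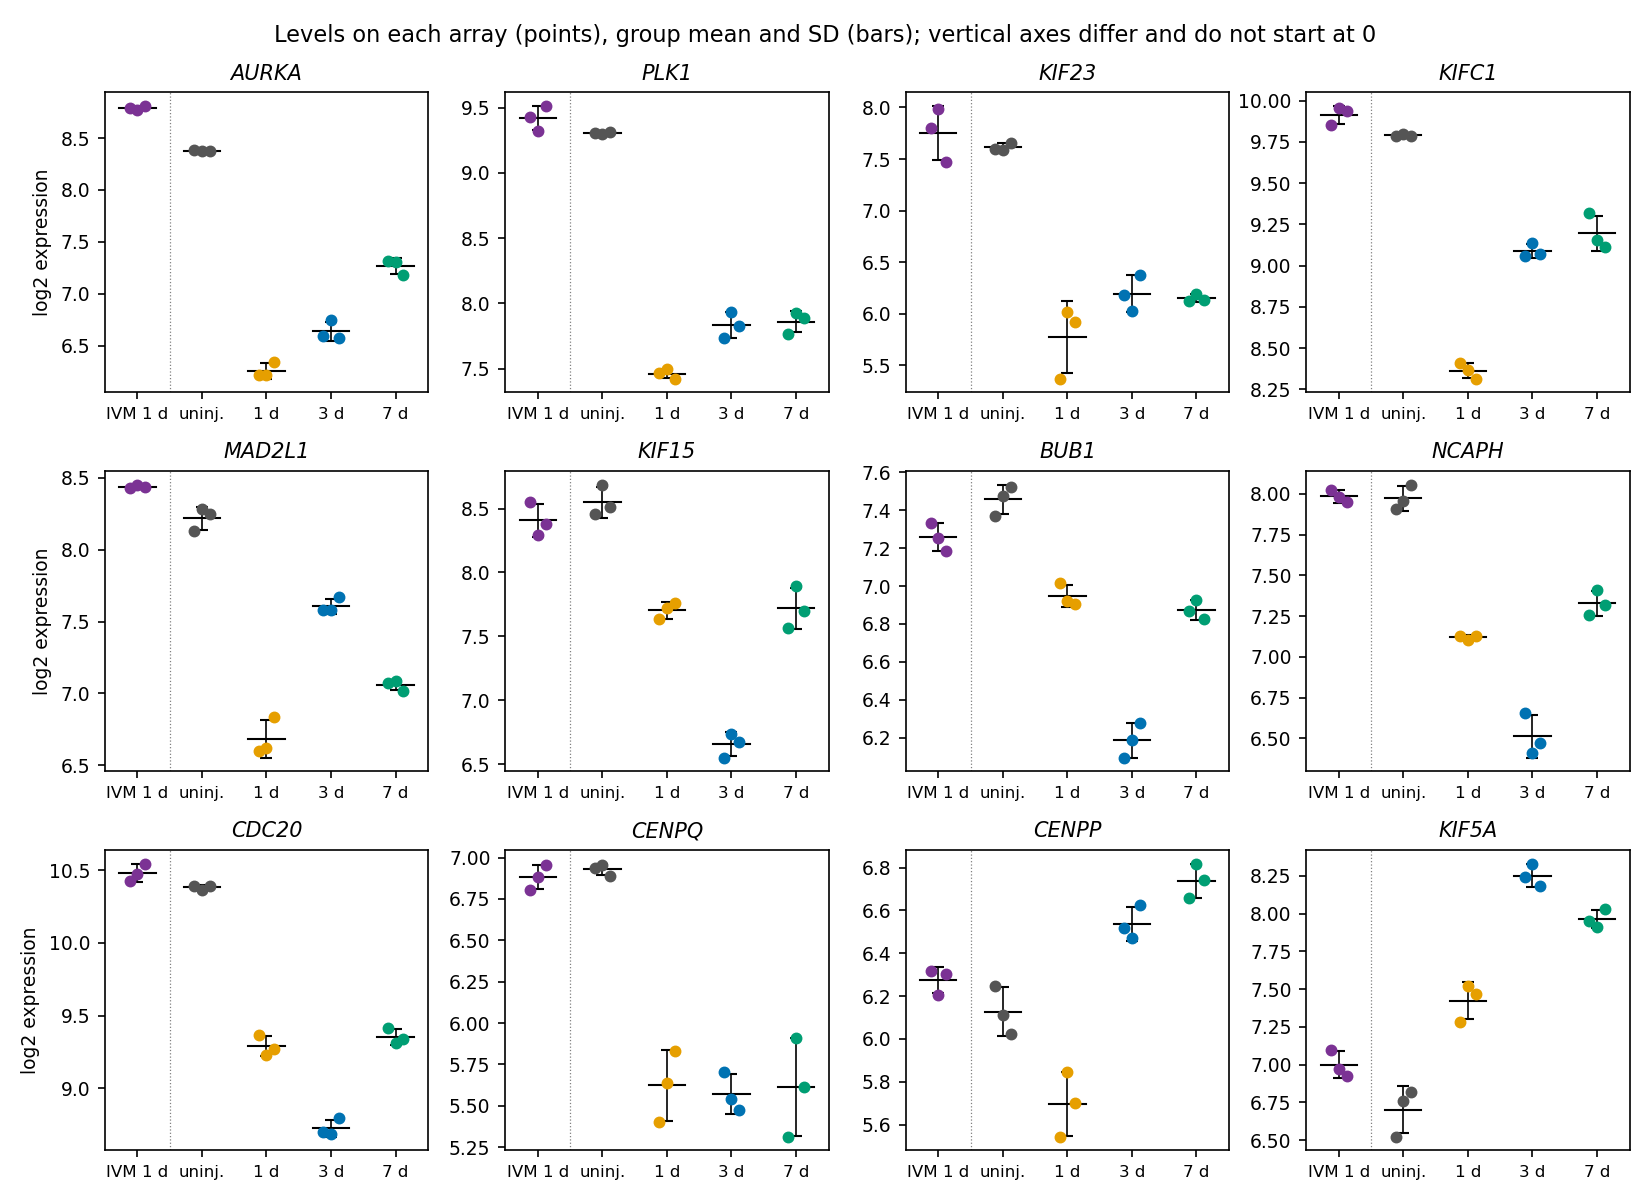
Log2 levels on each array for selected genes, with 1 point per array, bars for the group mean and SD (n = 3), vertical axes that differ and do not start at 0, and groups in the order ivermectin, uninjured, 1, 3 and 7 days. AURKA, PLK1 and MAD2L1 are low at 1 day and high with ivermectin, and KIF5A is highest at 3 and 7 days.

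Of the 18 other kinesins 0 fell at 1, 3 or 7 days by limma (0, 0 and 1 at an unadjusted p under 0.05), where 29.8%, 32.5% and 29.2% of all named genes fell. At 1 day 8 rose (44.4%, against 25.8% of all named genes) and at 3 days 10 rose (55.6%, against 29.4%). Apart from the minimum difference of 0.5 and leaving out dim probe sets, alternatives gave 6 to 9 rises at 1 day and 9 to 12 at 3 days. They gave 0 to 1 falls at each of 1, 3 and 7 days, so the count of 0 falls was not fixed. The used probe set of KIF13A was not called at 1, 3 or 7 days, whereas its other probe set was called at each. KIF3C, counted at both times, lost its 1 day call in 4 of 22 alternatives (highest adjusted p by limma 0.153). The 7 that rose at 7 days (38.9%) were a share near that of all named genes (31.1%). Their median differences were 0.16, 0.29 and 0.12. KIF5A, a conventional kinesin heavy chain that is mainly neuronal in mammals, read 6.52, 6.76 and 6.82 on the uninjured arrays, 7.28, 7.52 and 7.47 at 1 day, 8.24, 8.33 and 8.18 at 3 days and 7.95, 7.91 and 8.03 at 7 days. It was the gene of the 78 with the largest rise at 3 days (1.55 ± 0.082, 2.93-fold) and at 7 days (1.26), and it rose by 0.72 at 1 day. The other probe set of KIF5A shared the call at 3 days and was not called at 1 or 7 days. KIF5B, the form found in most cells, read 9.06, 9.19 and 9.0 on the uninjured arrays, 9.36, 9.36 and 9.37 at 1 day, 9.50, 9.57 and 9.64 at 3 days and 9.52, 9.71 and 9.60 at 7 days. KIF5C, the other neuronal form, read 4.33, 4.22 and 3.94 on the uninjured arrays, 5.0, 4.56 and 4.62 at 1 day, 4.70, 5.03 and 4.98 at 3 days and 4.51, 4.99 and 4.83 at 7 days. For KIF5A and KIF5B every injured array lay above the uninjured arrays, and 2 of the 3 uninjured arrays of KIF5C lay below their own lower quartile. KIF5B rose by 0.28 at 1 day, 0.49 at 3 days and 0.53 at 7 days. KIF5C rose by 0.57, 0.74 and 0.62, with wider scatter (SE 0.17) and a 1 day call that was lost without uninjured replicate 3 or 1 day replicate 1 (highest adjusted p by limma 0.0658).

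KIF1B, which carries cargo along axons, read 6.44, 6.43 and 6.34 on the uninjured arrays, 6.56, 6.62 and 6.45 at 1 day, 7.05, 6.90 and 6.85 at 3 days and 6.21, 6.41 and 6.44 at 7 days. It was high on the 3 day arrays alone of these groups, with a rise of 0.53 ± 0.075 at 3 days and differences of 0.14 and -0.05 at 1 and 7 days that were not called. The 4 probe sets of KIF1B did not all share the 3 day call, and none had an opposite call. KIF3A, a motor of transport within cilia, read 4.22, 4.11 and 4.08 on the uninjured arrays, 4.13, 4.41 and 4.30 at 1 day, 4.50, 4.34 and 4.56 at 3 days and 4.18, 4.17 and 3.95 at 7 days. It rose by 0.33 ± 0.099 at 3 days and was not called at 1 and 7 days (0.14 and -0.04). The other probe set of KIF3A was not called at 3 days. All 3 uninjured arrays and all 3 of the 7 day arrays of KIF3A lay below their own lower quartile, so the rise starts from a level not shown above background and is not exact. The same holds for KIF26A, which is also counted among the rises at 3 days. In addition, 2 of the 3 day arrays of KIF26A lay below their own lower quartile. Its 3 day call was lost in 2 of 21 alternatives (highest adjusted p by limma 0.0714). The partner of KIF3A, KIF3B, read 3.70, 3.63 and 3.72 on the uninjured arrays, 3.82, 3.56 and 3.76 at 1 day, 3.73, 3.76 and 3.75 at 3 days and 3.51, 3.52 and 3.58 at 7 days. KIF1A, the synaptic vesicle motor of neurons, read 3.72, 3.65 and 3.57 on the uninjured arrays, 3.73, 3.58 and 3.69 at 1 day, 3.82, 3.73 and 3.79 at 3 days and 3.86, 3.81 and 3.72 at 7 days. KIF3B and KIF1A stayed below the lower quartile of their arrays on all 15 arrays, as did KIF19 and KIFC3, so no level above background was shown for these 4.

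KIF9, a kinesin of motile cilia, read 5.53, 5.49 and 5.68 on the uninjured arrays, 6.66, 6.50 and 6.29 at 1 day, 5.90, 5.99 and 5.74 at 3 days and 6.13, 6.06 and 6.05 at 7 days. It was highest at 1 day, with a rise of 0.92 ± 0.095, and lower by 0.61 at 3 days relative to 1 day. KIF26B, which in the mouse is needed for kidney development, read 6.25, 6.24 and 6.10 on the uninjured arrays, 6.85, 7.02 and 6.94 at 1 day, 6.75, 6.53 and 6.70 at 3 days and 6.69, 6.67 and 6.72 at 7 days. Its injured arrays were all above the uninjured ones, by 0.74 at 1 day, 0.47 at 3 days and 0.50 at 7 days. KIF13B, a motor for membrane cargo, read 4.34, 4.74 and 4.55 on the uninjured arrays, 4.87, 4.76 and 4.96 at 1 day, 5.01, 4.99 and 5.09 at 3 days and 5.08, 5.19 and 5.08 at 7 days. It was higher after injury and rose by 0.32, 0.49 and 0.58 at 1, 3 and 7 days, and the 1 day call was lost without uninjured replicate 1 (adjusted p by limma 0.0638). KIF27, a relative of a Hedgehog pathway regulator, rose by 0.42 at 1 day and 0.43 at 7 days, and its 3 day difference of 0.19 was not called.

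Markers of other cell types moved with these groups. For scale, 25.8% of all named genes rose and 29.8% fell at 1 day, 29.4% and 32.5% at 3 days, and 31.1% and 29.2% at 7 days. All 23 skeletal muscle markers measured rose at 1 day, 22 rose and 1 fell at 3 days, and 22 rose at 7 days. Their mean level was 9.93 to 9.96 on the ivermectin arrays, 9.97 to 10.01 on the uninjured arrays, 11.24 to 11.26 at 1 day, 11.49 to 11.52 at 3 days and 11.26 to 11.30 at 7 days. Of 16 neuronal markers, 11 rose and 1 fell at 1 day, 15 rose and 1 fell at 3 days, and 11 rose at 7 days. Their mean level was 6.73 to 6.77 on the ivermectin arrays, 6.56 to 6.60 on the uninjured arrays, 7.17 to 7.20 at 1 day, 7.58 to 7.59 at 3 days and 7.53 to 7.54 at 7 days. Epidermal markers went down: 6 of 13 fell and 1 rose at 1 day, 12 fell at 3 days and 12 at 7 days. Their mean level was 10.53 to 10.56 on the ivermectin arrays, 10.66 to 10.69 on the uninjured arrays, 10.36 to 10.38 at 1 day, 9.59 to 9.62 at 3 days and 9.41 to 9.53 at 7 days. Up to 2 of the neuronal markers, and none of the muscle and epidermal markers, lay below the lower quartile on all 3 arrays of a group. The part of these tissues in the falls of mitotic genes and in the rises of kinesins was not tested.

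The injured groups were also compared with each other. At 3 days relative to 1 day 19 of the 78 genes rose and 20 fell, against 22.2% and 20.2% of all named genes. At 7 days relative to 3 days 26 rose and 12 fell, against 25.6% and 16.8%. At 7 days relative to 1 day 24 rose and 6 fell, against 28% and 16.3%. Under cyclic loess normalization this last split was 16 rises and 10 falls, and without 1 day replicate 1 only 3 falls were called. Between 3 days and 1 day KIF15, PLK3 and BUB1 fell by 1.05, 1.16 and 0.76, whereas MAD2L1, CENPP and KIFC1 rose by 0.92, 0.84 and 0.73.

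With ivermectin the mitotic genes stood high 1 day after injury. Against the 1 day arrays without the drug 47 of the 78 genes rose and 14 fell, where 30.9% of all named genes rose and 26.6% fell, and the median difference was 0.36. A rise of at least 2-fold was found for 13 genes (16.7%, against 3.06% of all named genes). By role, 8 of 11 mitotic kinesins, 4 of 5 Aurora and Polo-like kinases, 4 of 4 checkpoint genes, 10 of 13 kinetochore and centromere genes, 6 of 10 genes of the anaphase-promoting complex, 8 of 8 condensin genes and 4 of 4 genes of cohesin and SMC5/6 rose. Among these rises, those of CENPE, SPC25, CENPN and SMC5 were not stable, as given below. Of the 18 other kinesins 9 fell and 0 rose by limma (0 at an unadjusted p under 0.05). The same alternatives gave 7 to 10 falls, and KIF3C lost its call in 4 of 22 (highest adjusted p by limma 0.148). The 1 day arrays also served in the comparison with uninjured cord, so the opposite signs in the 2 comparisons are not independent of each other.

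AURKA read 8.79, 8.77 and 8.81 on the ivermectin arrays, against 6.21, 6.21 and 6.34 on the 1 day arrays, a rise of 2.53 ± 0.057 (5.79-fold; limma, adjusted p = 3.1e-14). PLK1 read 9.43, 9.32 and 9.51 with ivermectin, against 7.47, 7.49 and 7.42 at 1 day, a rise of 1.96. The ivermectin arrays lay more than 1 log2 unit above the 1 day arrays for both kinases. PLK2 read 10.48, 10.42 and 10.41, against 9.25, 9.19 and 9.21 at 1 day, and rose by 1.22 ± 0.072. PLK3 read 6.77, 6.68 and 6.64, against 6.50, 6.49 and 6.63, and was not called (0.16 ± 0.095). PLK3 was the kinase of the 5 with the smallest change at 1 day without the drug. PLK4 rose by 0.70 ± 0.12 with ivermectin.

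Among the mitotic kinesins, KIF23 read 7.81, 7.99 and 7.47 with ivermectin, against 5.37, 6.02 and 5.92 at 1 day, and rose by 1.98 ± 0.15. KIFC1 read 9.85, 9.95 and 9.94, against 8.41, 8.37 and 8.31, and rose by 1.55 ± 0.056. KIF20A read 8.09, 8.23 and 8.19, against 6.53, 6.72 and 6.63, and rose by 1.54 ± 0.066. All 3 genes separated the 2 groups without overlap. KIF11 read 9.13, 9.14 and 9.03, against 7.80, 7.84 and 7.92, KIF15 8.55, 8.30 and 8.38, against 7.63, 7.72 and 7.76, and KIF2C 6.62, 6.67 and 6.46, against 6.09, 6.15 and 6.34. They were higher with ivermectin by 1.24, 0.70 and 0.39. KIF22 and KIF4A rose by 1.41 and 0.66, while KIF20B fell by 0.17 ± 0.056, a call lost without 1 day replicate 2 or ivermectin replicate 2 (highest adjusted p by limma 0.0576). The other probe set of KIF20B was not called in this comparison. PRC1 read 5.66, 6.09 and 4.64 with ivermectin, against 3.62, 3.90 and 4.16 at 1 day, a difference of 1.57 ± 0.27 that is not exact because all 3 of the 1 day arrays lay below their own lower quartile, with the third ivermectin pool well below the other 2 and still above the 1 day arrays.

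In the checkpoint group MAD2L1 read 8.43, 8.45 and 8.44 with ivermectin, against 6.60, 6.62 and 6.83 at 1 day, and rose by 1.75 ± 0.062. BUB1B read 7.85, 7.76 and 7.91, against 7.08, 7.18 and 7.15, and rose by 0.70 ± 0.063. BUB1 read 7.33, 7.26 and 7.19, against 7.02, 6.92 and 6.90, and had a smaller rise of 0.31. The 2 groups did not overlap for these genes. CDC20 read 10.43, 10.47 and 10.54, against 9.36, 9.23 and 9.27, and rose by 1.19 ± 0.052. ANAPC1 read 6.13, 6.33 and 6.29, against 5.83, 5.91 and 5.85, and ESPL1 5.54, 5.62 and 5.53, against 5.22, 5.05 and 5.12. They rose by 0.39 and 0.43, while the catalytic subunit ANAPC11 fell by 0.26 ± 0.049. MAD2L1BP rose by 1.17.

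At the kinetochore NDC80 read 8.16, 8.08 and 8.15 with ivermectin, against 7.10, 7.31 and 7.18 at 1 day, and rose by 0.93 ± 0.079. CENPF read 6.31, 6.16 and 6.34, against 5.71, 5.83 and 5.75, and rose by 0.51 ± 0.065. CENPE read 7.20, 7.05 and 7.09, against 6.75, 6.94 and 7.01, and its rise of 0.21 lost its call in 7 of 22 alternatives (highest adjusted p by limma 0.38). The ivermectin arrays lay above the 1 day arrays for all 3 genes, by a narrow margin for CENPE. In the centromere network CENPQ read 6.81, 6.88 and 6.95, against 5.40, 5.64 and 5.83, CENPP 6.32, 6.21 and 6.30, against 5.54, 5.84 and 5.70, and CENPO 7.56, 7.68 and 7.52, against 7.70, 7.68 and 7.71. CENPQ rose by 1.26 and CENPP by 0.58, and CENPO was not called (-0.10 ± 0.061). SPC25, counted as a rise, averaged 9.14 with ivermectin against 8.99 at 1 day. Its call was lost in 11 of 22 alternatives (highest adjusted p by limma 0.44). CENPN averaged 4.27 against 4.05, and its call was lost in 3 of 21 (highest adjusted p by limma 0.11). For CENPN all 3 of the 1 day arrays and 2 of the 3 ivermectin arrays lay below their own lower quartile. CENPV read 9.95, 9.85 and 9.83 with ivermectin, against 10.49, 10.58 and 10.63, and fell by 0.69 ± 0.062.

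The condensin core gene SMC2 read 8.61, 8.40 and 8.37 with ivermectin, against 7.63, 7.71 and 7.62 at 1 day, and SMC4 9.42, 9.26 and 9.36, against 8.54, 8.65 and 8.68. NCAPH read 8.02, 7.98 and 7.95, against 7.13, 7.10 and 7.12, and NCAPG 8.67, 8.74 and 8.69, against 8.28, 8.28 and 8.25. Each of the 4 genes separated the ivermectin arrays from the 1 day arrays. The 4 genes rose by 0.80, 0.72, 0.87 and 0.43, and the remaining condensin genes by 0.44 to 0.70. SMC1A read 6.04, 6.23 and 6.16, against 5.17, 5.28 and 5.20, and rose by 0.93 ± 0.073. SMC3 read 8.71, 8.55 and 8.48, against 8.18, 8.32 and 8.35, and had a smaller rise of 0.30. SMC6 rose by 0.70, and the rise of the dim SMC5 by 0.18 was lost in 5 of 21 alternatives (highest adjusted p by limma 0.129).

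Among the other kinesins KIF5A read 7.10, 6.97 and 6.93 with ivermectin, against 7.28, 7.52 and 7.47 at 1 day, and fell by 0.43 ± 0.082. The other probe set of KIF5A was not called in this comparison. KIF5B read 9.09, 9.0 and 9.03, against 9.36, 9.36 and 9.37, and KIF5C 3.95, 4.15 and 4.63, against 5.0, 4.56 and 4.62. They were lower by 0.33 and 0.49, and the call of KIF5C was lost without 1 day replicate 1, ivermectin replicate 1 or ivermectin replicate 2 (highest adjusted p by limma 0.138). For KIF5C 2 of the 3 ivermectin arrays lay below their own lower quartile, so the size of its fall is not exact. The kinesins KIF26B and KIF9 fell further and without overlap. KIF26B read 6.34, 6.12 and 6.05, against 6.85, 7.02 and 6.94, and fell by 0.77 ± 0.078. KIF9 read 6.01, 5.79 and 5.77, against 6.66, 6.50 and 6.29, and fell by 0.63 ± 0.095. KIF1B read 6.22, 6.09 and 6.27, against 6.56, 6.62 and 6.45, and its fall of 0.35 was lost when its probe sets were averaged (adjusted p by limma 0.111). The groups did not overlap for KIF1B or for KIF13B. KIF13B read 4.55, 4.36 and 4.69, against 4.87, 4.76 and 4.96, and its fall of 0.33 was lost without ivermectin replicate 2 (adjusted p by limma 0.0522). KIF3A read 4.10, 4.31 and 3.93, against 4.13, 4.41 and 4.30, and was not called (-0.17), while its other probe set was called. The dim KIF1A read 3.56, 3.72 and 3.92, against 3.73, 3.58 and 3.69, and the dim KIF3B 3.60, 3.80 and 3.75, against 3.82, 3.56 and 3.76. In the same comparison 22 of 23 muscle markers and 10 of 16 neuronal markers fell with ivermectin, and 6 of 13 epidermal markers rose and 3 fell. Of the other marker lists, 5 of 7 red cell markers fell, 5 of 10 ependymoglial markers fell and 2 rose, 6 of 14 markers of leukocytes rose and 2 fell, 6 of 13 of cartilage and connective tissue fell and 2 rose, and 2 of 3 of myelin fell and 1 rose. For scale, 30.9% of all named genes rose and 26.6% fell in this comparison. The part of these tissues in the differences of the 78 genes was not tested.

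Set against uninjured cord, the ivermectin arrays differed little in these genes: 4 rose, 1 fell and 73 were not called, where 3.06% of all named genes rose and 4.33% fell. The split was 4 and 2 under cyclic loess and 3 and 2 under median centring, and the counts ranged from 1 to 4 rises and from 0 to 2 falls when single arrays were left out, with changes beyond 1.5-fold for each uninjured and each ivermectin array, 1 day replicate 1, 3 days replicates 1 and 2 and 7 days replicate 1. The median difference was 0.0095, and differences ran from -0.36 to 0.41. AURKA rose by 0.41 ± 0.057 above uninjured cord (limma, adjusted p = 0.000367, with a range of 8.79e-05 to 0.00349 over 22 alternatives). MAD2L1 was higher by 0.22 and was lost in 16 of 22 alternatives (adjusted p by limma 0.0198 to 0.171). ANAPC10 was higher by 0.25 and was lost in 4 (0.0115 to 0.095). KIF5A was higher by 0.30 and was lost in 11 (0.0168 to 0.362), and KIF21A was lower by 0.36 and was lost in 5 (0.0173 to 0.138). The other probe set of KIF5A was not called here, whereas those of KIF22 and NCAPH were called although the used ones were not. By the used probe sets none of the 8 condensin genes was called by limma in this comparison (0 at an unadjusted p under 0.05). Their differences by these probe sets lay between -0.15 and 0.08. For NCAPH this depended on the choice of probe set.

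Other genes of the pathway, from lists written with earlier results of these data known, were counted in the same way. Of 51 further mitotic genes 35 fell and 2 rose at 1 day, 38 fell and 5 rose at 3 days, and 30 fell and 4 rose at 7 days, with median differences of -0.63, -0.51 and -0.48. At these times 29.8%, 32.5% and 29.2% of all named genes fell and 25.8%, 29.4% and 31.1% rose. CCNB1, the cyclin that starts mitosis, differed by -2.51 ± 0.062 at 1 day, -1.43 at 3 days and -0.83 at 7 days. FBXO5, an inhibitor of the anaphase-promoting complex, fell by 2.11 at 1 day, and FZR1, another activator of it, fell by 1.66 at 3 days and 1.61 at 7 days. FBXO5 averaged 7.60 on uninjured arrays, 6.28 at 3 days and 6.36 at 7 days, and FZR1 7.32 on uninjured arrays and 5.97 at 1 day. TOP2A, the topoisomerase that untangles sister chromosomes, fell by 0.79, 0.96 and 0.94. MKI67, a marker of dividing cells, fell by 0.44 at 1 day, and its differences of 0.15 at 3 days and -0.07 at 7 days were not called. BIRC5, the survivin subunit of the Aurora B complex, went against the list and rose by 0.76, 0.98 and 0.91. Its uninjured mean of 4.16 lay under the lower quartile of every array (4.206 to 4.277), so these sizes are not exact. INCENP, the scaffold of that complex, fell by 1.63 at 3 days. Its means were 8.50 on uninjured arrays, 6.86 at 1 day, 6.88 at 3 days and 7.46 at 7 days.

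Of 34 DNA replication genes 32 fell and 0 rose at 1 day by limma (0 at an unadjusted p under 0.05), 27 fell and 2 rose at 3 days, and 31 fell at 7 days. PCNA, the clamp of the replication fork, fell by 0.50, 0.32 and 0.68, and TK1, a thymidine kinase of dividing cells, by 2.47, 1.89 and 2.29. Of 10 cohesin partners 7 fell at 1 day, 5 fell and 2 rose at 3 days and 5 fell at 7 days. For both lists the shares of all named genes that fell were 29.8%, 32.5% and 29.2%, and those that rose 25.8%, 29.4% and 31.1%. NIPBL, the cohesin loader, fell by 0.99 at 1 day, and the cohesin subunit RAD21 fell by 0.41 at 1 day and was not called later (0.05 and -0.05). NIPBL averaged 7.80 on uninjured arrays, 6.81 at 1 day, 7.46 at 3 days and 6.76 at 7 days. With ivermectin relative to 1 day 38 of the 51 further mitotic genes rose and 4 fell, 32 of 34 replication genes rose and 5 of 10 cohesin partners rose. There 30.9% of all named genes rose and 26.6% fell. CCNB1 rose by 2.85 in that comparison and BIRC5 fell by 0.59. Relative to uninjured cord 9 of the 51 mitotic genes and 13 of the 34 replication genes were higher with ivermectin, and 0 of either list fell by limma (1 and 0 at an unadjusted p under 0.05). There 3.06% of all named genes rose and 4.33% fell.

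For 23 of the 78 genes the array carried several probe sets, and in no comparison did probe sets of 1 gene receive opposite calls. At 1 day against uninjured cord all probe sets shared 1 call for 16 of the 23 genes. Of the 15 genes whose chosen probe set fell at 1 day, 9 had another probe set that fell further. For SMC4 the 4 probe sets differed by -0.64 (the one used), -1.43, -2.10 and -0.08 (not called, mean level 3.54), and for KIF23 by -1.84 (used), -1.03, -0.96 and -0.58. NDC80 gave -0.86 (used) and -1.34, and SMC3 gave -0.28 (used) and -0.97. KIF5A gave 0.72 (used) and 0.23, which was not called. The size of a fall therefore depended on the probe set, and its direction did not among the called ones.

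**Figure D4:**
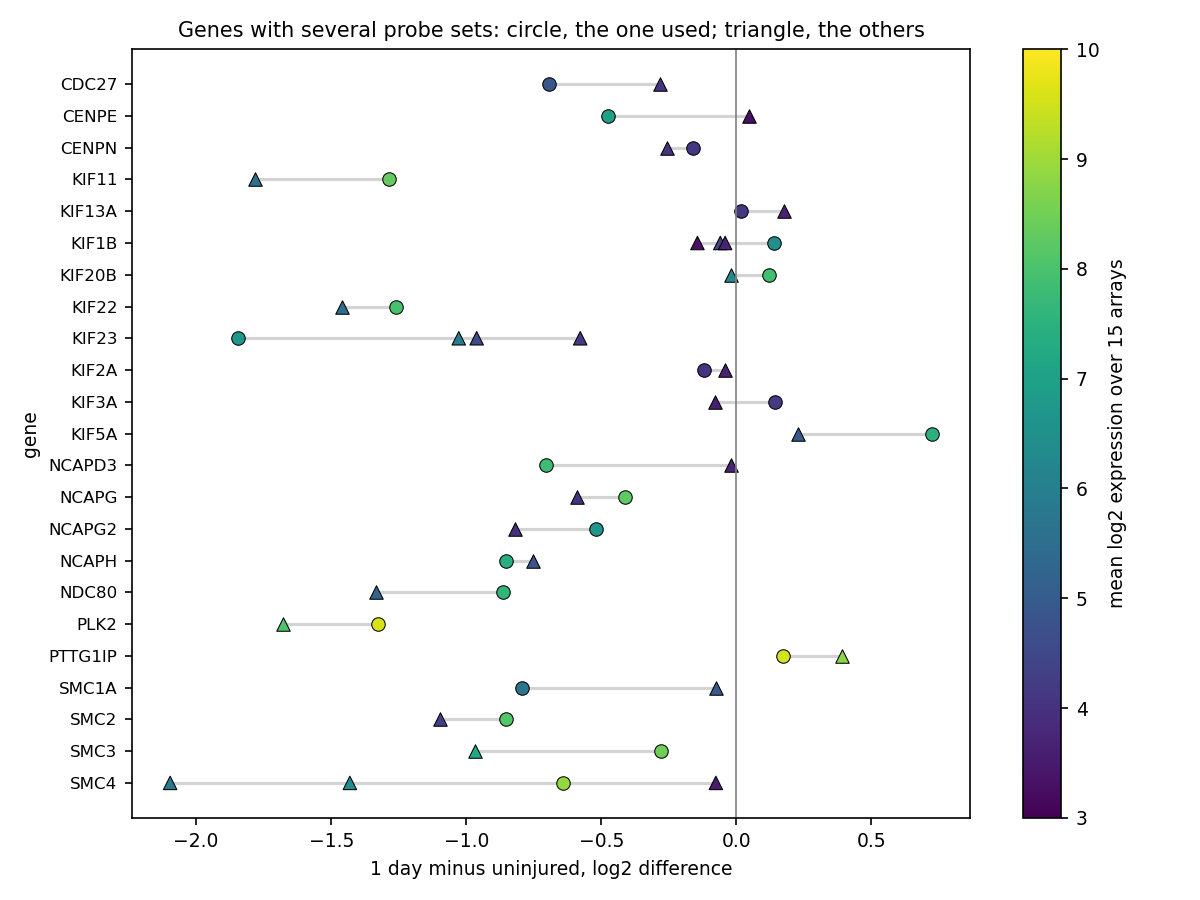
Log2 differences between 1 day and uninjured cord for each probe set of the genes that have several, with 1 row per gene. Circles are the probe sets used, triangles the others, and colour gives the mean log2 level over 15 arrays; SMC4 spans -2.10 to -0.08, and the probe sets of KIF23 all lie below 0.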

How the data were processed

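Total RNA from pooled spinal cord tissue was hybridized to 15 Affymetrix custom axolotl arrays, 5 groups of 3 pools, grouped by the sample titles. Per the submitters' processing notes the authors ran RMA, with Affymetrix Expression Console also named, and deposited log2 expression per probe set. A joint normalization of all arrays is not given in the sources used here, and no other normalization was added. No value was missing, array medians lay between 5.797 and 5.893, and 0 arrays were duplicates. RMA summaries of dim probe sets lie near background: a level under the lower quartile of its array (4.206 to 4.277) is called dim. Arrays have no count depth, and precision is set by how many were run.

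Of 20080 probe sets, 45 controls were set aside. A symbol was given for 10951 probe sets (8639 genes) and none for 9084. All 78 symbols examined are current symbols in the RefSeq annotation of the axolotl assembly UKY_AmexF1_1. Group means came from limma 3.58.1 in R 4.3.3 (lmFit, then eBayes), with the 15 arrays in 1 fit (residual degrees of freedom 10, prior 4.26). The 8 comparisons were two-sided, Benjamini-Hochberg adjustment ran over 20035 probe sets, and a gene is called at an adjusted p under 0.05. The p-values measure the spread between pools. Python 3.11.15 with matplotlib 3.10.9 drew the figures, and the fit was tested on simulated data.

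The genes, roles and lists were chosen with earlier results of these data known. By rule, values on every array are given for a fixed list of symbols where measured and for the 4 strongest rises and the 4 strongest falls per main comparison among those without overlap of arrays, and any of the 78 genes may be named. From other lists only a few fixed genes and the 2 with the largest called change per list and comparison are named. Replicate numbers did not pair the arrays: over 30 pairs with the same number the median residual correlation was -0.0062 (range -0.225 to 0.231), so no block was used. Alternatives were the replicate block, cyclic loess, median centring, a prior variance that follows intensity, a fit of the compared groups alone, dim probe sets (lowest 25%) left out, a minimum difference of 0.5, averaging each gene's probe sets, and leaving out each array.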

Additional observations from a re-analysis of the deposited data

Results flagged for a closer look

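Genes are listed here if their calls against uninjured cord differed in sign between times and the direct difference between those times was also called. The adjusted p-values below come from the same test that was used for this choice, so they are not independent of it. CENPP, a centromere network gene, was lower than uninjured cord at 1 day (-0.43) and higher at 3 days (0.41). The 3 day level exceeded the 1 day level by 0.84 ± 0.079 (limma, adjusted p = 5.21e-07), and the arrays of these groups did not overlap. At 7 days CENPP was also higher than uninjured cord (0.61), and the difference between 7 days and 1 day was 1.04 (limma, adjusted p = 4.80e-08). ANAPC5, a subunit of the anaphase-promoting complex, was lower than uninjured cord at 3 days (-0.18, lost in 9 of 22 alternatives) and higher at 7 days (0.49), with a difference between 7 days and 3 days of 0.67 ± 0.067 (limma, adjusted p = 1.56e-06).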

How the results depend on the processing

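Across 22 alternatives 50 of the 59 calls at 1 day against uninjured cord kept their call and direction, as did 53 of 67 at 3 days, 55 of 60 at 7 days, 52 of 61 for ivermectin against 1 day, 1 of 5 for ivermectin against uninjured cord, 31 of 39 at 3 days against 1 day, 29 of 38 at 7 days against 3 days and 16 of 30 at 7 days against 1 day; the causes of the losses were not tested. A minimum difference of 0.5 is stricter by construction. Against uninjured cord it left 36 calls at 1 day, 38 at 3 days and 40 at 7 days. It left 5, 3 and 8 rises among these, and the other calls were falls. It left 30 rises and 3 falls for ivermectin against 1 day, 0 and 0 for ivermectin against uninjured cord, 4 and 11 at 3 days against 1 day, 15 and 2 at 7 days against 3 days, and 8 and 1 at 7 days against 1 day. For ivermectin against uninjured cord the rises were 2 with the replicate block and 2 with the compared groups alone, and the falls were 0 with the compared groups alone and 2 each with the intensity trend, cyclic loess, median centring and dim probe sets left out. The replicate block moved no other count by over 1.5 times. At 7 days against 1 day cyclic loess gave 10 falls, and the share of rises among all calls was 47.9% instead of 59.1%. NDC80 at 3 days against 1 day was 0.04 and not called, but -0.21 with the mean of its probe sets (limma, adjusted p = 0.0429).

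Leaving out single arrays gave 11 to 15 rises and 43 to 46 falls at 1 day, 16 to 20 and 41 to 48 at 3 days, and 16 to 17 and 41 to 43 at 7 days against uninjured cord. It gave 44 to 47 rises and 11 to 15 falls for ivermectin against 1 day, and 1 to 4 and 0 to 2 for ivermectin against uninjured cord. It gave 15 to 19 and 19 to 21 at 3 days against 1 day, 23 to 28 and 8 to 13 at 7 days against 3 days, and 19 to 25 and 3 to 7 at 7 days against 1 day, with the 3 without 1 day replicate 1. Array signal limits the 6 genes that were dim on all 15 arrays.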

Other observations

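Marker lists of other cell types that the cord and its surroundings could hold gave the following counts and levels, and no relation to the 78 genes was tested. Among all named genes 25.8% rose and 29.8% fell at 1 day, 29.4% and 32.5% at 3 days, and 31.1% and 29.2% at 7 days. Of 10 ependymoglial markers 5 rose and 1 fell at 1 day, 3 rose and 3 fell at 3 days, and 7 rose and 1 fell at 7 days. GFAP, the intermediate filament of these cells, averaged 10.4 ± 0.00834 on ivermectin arrays (SD, n = 3), 9.97 ± 0.0591 on uninjured arrays, 10.6 ± 0.0188 at 1 day, 9.67 ± 0.0537 at 3 days and 10.8 ± 0.0499 at 7 days. HES1, a Notch target, fell by 0.88 at 1 day and 1.36 at 3 days, and SLC1A3, a glial glutamate transporter, rose by 0.87 at 1 day and 1.32 at 7 days. HES1 averaged 8.03 on uninjured arrays and 7.32 at 7 days, and SLC1A3 7.30 on uninjured arrays and 7.35 at 3 days.

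Of 14 markers of macrophages and other leukocytes 2 rose and 7 fell at 1 day, 5 rose and 5 fell at 3 days, and 7 rose and 2 fell at 7 days. The complement gene C1QB rose by 0.95, 1.40 and 2.13. SIGLEC1 went the other way, with means of 6.98 on uninjured arrays, 6.28 at 1 day, 5.10 at 3 days and 6.89 at 7 days. CTSS averaged 10.70, 9.91, 9.62 and 10.06 in the same order. Of 7 red cell markers 5 rose at 1 day, 7 at 3 days, and 3 rose and 2 fell at 7 days, with ALAS2, the erythroid enzyme of heme synthesis, up by 1.62 at 1 day. ALAS2 averaged 8.78 on uninjured arrays, 10.31 at 3 days and 8.20 at 7 days. Of 13 cartilage and connective tissue markers 6 rose and 4 fell at 1 day, 3 rose and 5 fell at 3 days, and 5 rose and 5 fell at 7 days. The shares of all named genes given above are the scale for these lists too. Of 3 myelin markers measured, MBP rose by 1.23 at 3 days, while CNP fell by 1.01, 1.30 and 1.19 at 1, 3 and 7 days. MBP averaged 11.12 on uninjured arrays, 11.79 at 1 day and 10.97 at 7 days. The third, PMP22, averaged 9.52 on uninjured arrays, 10.21 at 1 day, 9.21 at 3 days and 9.28 at 7 days.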
